A study of Mus musculus with 6 samples.

Results

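The 7 mouse genes of the 14-3-3 adaptor protein family were examined in ovarian secondary follicles from young and old mice. The family consists of Ywhab, Ywhae, Ywhag, Ywhah, Ywhaq, Ywhaz and Sfn, which encode the beta, epsilon, gamma, eta, theta, zeta and sigma isoforms. The family was taken up after a dimmer probe set of Ywhaq had been seen to be lower in the old follicles, so the differences between the ages are given for the members as a description and without a p-value. Members were found as the probe sets whose only annotated gene symbol was 1 of the 7 names, which gave 31 of 34945 probe sets and 7 of 18193 genes. The follicles came from specific pathogen-free female C57BL/6J mice without any allele or agent in the labels, 9 weeks old in the young group and 32 weeks old in the old group, with 3 samples each. They were cut out of the ovary with needles, chosen by their size and by an unbroken basal membrane around the oocyte and its granulosa cells, and each sample was hybridized to 1 Affymetrix 3' expression array. The labels call the samples biological replicates, but the sources used here do not say how many mice stood behind each. Errors and p-values therefore rest on how far samples lie apart, not on a known number of mice. Standard errors, intervals and adjusted p-values come from limma, which shares part of that spread over all probe sets, genes or pairs fitted. All levels are log2 of the authors' RMA intensity, and a difference is always old minus young on that scale.

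The 14-3-3 proteins form dimers that hold partner proteins by short motifs carrying a phosphorylated serine or threonine. Bound partners are often kept in the cytoplasm or away from their targets, as with the FOXO transcription factors, the Hippo effector YAP1 and the cell death protein BAD. In the oocyte, the phosphatase CDC25B is phosphorylated by protein kinase A and bound by 14-3-3, and this is part of the arrest of meiosis. Sfn differs from the other members in being known mainly from epithelia.

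The array reads a transcript near its 3' end with sets of short probes, called probe sets, and most members were measured by several. Ywhaq had 8 probe sets, Ywhaz 7, Ywhab 6, Ywhae 4 and Ywhag 4, while Ywhah and Sfn had 1 each. Of the probe sets of a gene, that with the highest average level on the 6 arrays is called the brightest and the 24 others are called dimmer. The ending of a probe set name says how specific the probes are. An ending of _at marks probes made for 1 transcript, _a_at probes shared by transcripts of 1 gene, and _s_at or _x_at probes that other transcripts can share in whole or in part. Of the 31 probe sets, 11 ended in _x_at, 9 in _a_at, 5 in _s_at and 6 in _at. The brightest probe set ended in _x_at in 4 of the 5 genes with several. RefSeq (GRCm38.p6) lists 3 pseudogenes of Ywhaq and none under the names of the other members, and whether probes read them was not analysed here.

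The samples carried the markers of their label. All 10 oocyte markers and all 10 granulosa cell markers measured were above the median of all probe sets. Levels were summed over each marker list on the linear scale before log2 was taken. The summed level of the oocyte markers was 14.47 to 14.51 in the young and 14.21 to 14.24 in the old samples, and that of the granulosa cell markers was 14.77 to 14.79 and 14.75 to 14.80. Markers of the ovarian surface epithelium were higher in the old samples in 5 of 7 genes (median difference 1.17), with summed levels of 8.52 to 8.64 and 9.25 to 9.29. Macrophage markers were higher in 2 of 8 genes (median 0.49), with summed levels of 8.04 to 8.10 and 8.77 to 8.89. Theca markers were higher in 2 of the 4 genes measured out of 6 listed (median 0.69), with summed levels of 11.76 to 11.79 and 11.91 to 11.93. The 2 were Star (1.87) and Cyp11a1 (1.34), while Hsd3b1 (0.04) and Cyp17a1 (-0.11) were not called. These counts are at a fold of 2 and an adjusted p within 0.05 in limma, by which none of the 5 endothelial and 6 stromal or smooth muscle markers was higher. With no minimum fold, 5 of the 6 stromal markers were higher (median 0.37, summed levels of 11.21 to 11.33 and 11.66 to 11.68). So were 6 of the 7 surface epithelium, 4 of the 8 macrophage and 1 of the 5 endothelial markers. Lower were 8 of the 10 oocyte markers (median -0.27), 2 of the 10 granulosa cell, 1 of the 8 macrophage and 1 of the 5 endothelial markers. Of all genes, 10.1% were higher and 13.3% lower by this threshold. In such bulk samples, fewer cells of a type and less RNA per cell cannot be told apart.

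By their brightest probe sets, the 14-3-3 genes differed between young and old secondary follicles by at most 0.24. When the probe sets of each gene were averaged instead, Ywhag was at -0.30, Ywhaq at -0.27 and Ywhaz at -0.18, in place of -0.02, 0.02 and 0.24. Without the shared probe sets, whose names end in _s_at or _x_at, Ywhag was at -0.77, Ywhaz at -0.70, Ywhaq at -0.12 and Ywhae at -0.04. The brightest probe sets of these 4 genes ended in _x_at, and of the 2038 such probe sets on the array 0% were called lower. A gene was called where limma gave a fold of 2 or more together with an adjusted p no higher than 0.05. None of the 7 genes was called by limma, which called 0.764% of all genes in either direction, and SAM called 0. As a count only, 1 of the 7 was at an unadjusted p under 0.05, where 37.3% of all genes were. The 7 differences ran from -0.11 to 0.24 with a median of -0.05, against a median of -0.00 over all 18193 genes. The groups did not overlap in 3 of the 7 genes (Ywhab, Ywhae and Ywhaz), and they did not overlap in 42.5% of all genes.

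Ywhab, whose product binds RAF kinases among many partners, was at 11.86, 11.81 and 11.87 in the young and at 11.78, 11.80 and 11.77 in the old samples. Every old value lay below every young value, but the difference was -0.06 (95% interval -0.19 to 0.07). Its 5 dimmer probe sets differed by -0.19 to 0.08, and no probe set of Ywhab came near a fold of 2. Ywhae, the epsilon isoform, was at 11.86, 11.75 and 11.77 in the young and at 11.68, 11.69 and 11.71 in the old samples. Its difference was -0.10 (95% interval -0.24 to 0.04). The 3 dimmer probe sets of Ywhae were at -0.05, -0.04 and 0.14.

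Ywhah, an isoform that is abundant in brain, was measured by the single probe set 1416004_at. It was at 9.53, 9.50 and 9.53 in the young and at 9.42, 9.49 and 9.50 in the old samples. The groups overlapped and the difference was -0.05 (95% interval -0.18 to 0.09). Sfn, the epithelial member, was at 3.83, 3.13 and 3.17 in the young and at 3.66, 2.85 and 3.28 in the old samples. The replicates of Sfn differed by more than the ages did, with a difference of -0.11 (95% interval -0.67 to 0.45). The lower quartile of all probe sets lay between 3.13 and 3.24 on the 6 arrays, so Sfn was at the dim end of the range. This difference stood beside the higher surface epithelium markers given above.

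Ywhaq, the theta isoform, held the largest split between probe sets of 1 gene in the family. Its brightest probe set, 1460621_x_at, was at 11.66, 11.80 and 11.78 in the young and at 11.79, 11.75 and 11.77 in the old samples. The ages overlapped there and the difference was 0.02 (95% interval -0.12 to 0.17). Its dimmer probe set 1420828_s_at was at 9.73, 9.71 and 9.68 in the young and at 7.79, 8.01 and 7.83 in the old samples. All 3 old values were below all young values, and the means were 9.71 ± 0.023 and 7.87 ± 0.12 (SD, n = 3 each), a difference of -1.83 (standard error 0.07). On the linear scale this probe set was 3.56-fold lower in the old follicles. The 6 other dimmer probe sets of Ywhaq differed by -0.26 to 0.12. The annotation names the same source sequence for 1420828_s_at, 1420829_a_at and 1420830_x_at, and the other 2 of these differed by -0.12 and -0.05.

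**Figure D1:**
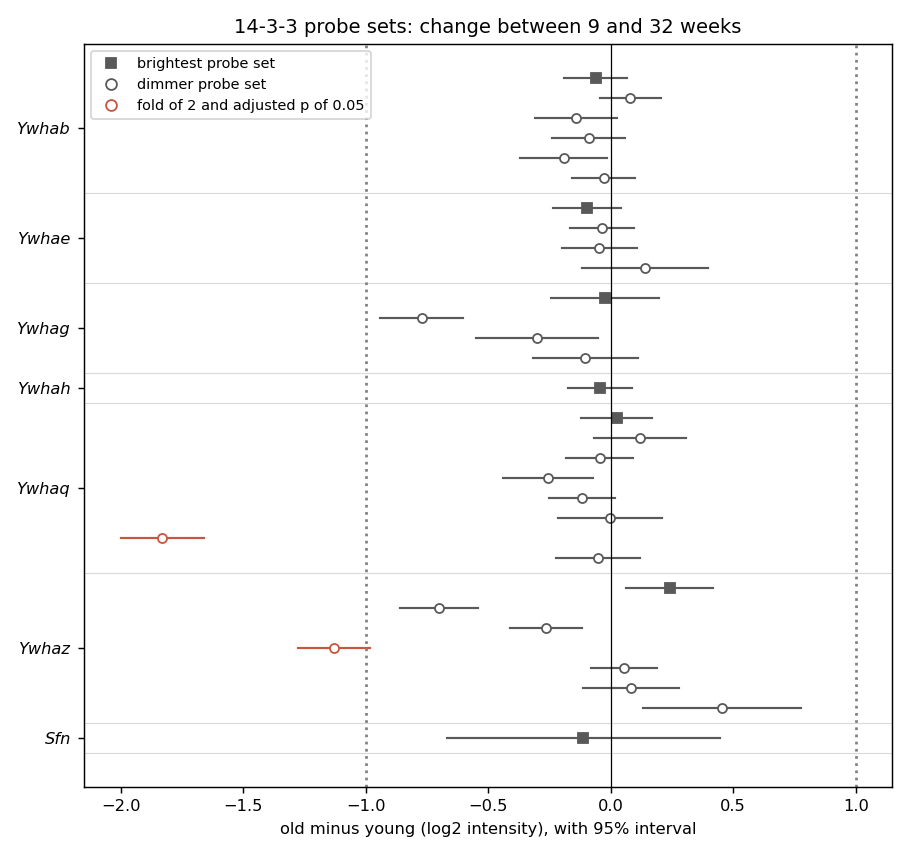
The difference of every 14-3-3 probe set (horizontal axis, old minus young, log2 intensity) with its 95% interval from limma, grouped by gene and ordered from bright to dim, with dotted lines at a fold of 2. The brightest probe sets (squares) lie between -0.11 and 0.24, while 1 dimmer probe set of Ywhaq (-1.83) and 1 of Ywhaz (-1.13) lie beyond the dotted line.

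Ywhaz, the zeta isoform, showed a graded set of values. Its probe set 1416102_at was at 8.94, 8.88 and 8.79 in the young and at 7.70, 7.76 and 7.76 in the old samples. The ages did not overlap and the difference was -1.13 (standard error 0.06), which is 2.19-fold lower. The probe set 1448219_a_at went from 10.79, 10.90 and 10.73 to 10.17, 10.05 and 10.11, a difference of -0.70 (standard error 0.07) without overlap. The probe set 1448218_s_at was at 9.90, 10.04 and 9.99 in the young and at 9.68, 9.75 and 9.70 in the old samples, a difference of -0.27. The fourth probe set from the same source sequence, 1416103_at, had overlapping groups and a difference of 0.05. Like 1416103_at, the remaining probe sets of Ywhaz lay above 0. The annotation names no source sequence for the brightest of them and other source sequences for the rest. The brightest, 1436971_x_at, was at 10.29, 10.46 and 10.48 in the young and at 10.71, 10.56 and 10.69 in the old samples, a difference of 0.24 (95% interval 0.06 to 0.42) without overlap. The dim probe set 1436981_a_at went from 5.82, 5.85 and 5.89 to 6.63, 6.02 and 6.26, a difference of 0.45 with a wider spread among the old samples.

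The direction given for Ywhaz depended on the probe set that stood for the gene. On the young arrays 1448219_a_at was the brightest and on the old arrays 1436971_x_at was, while Ywhab, Ywhae, Ywhag and Ywhaq, the other genes with several probe sets, had the same brightest one at both ages. With the brightest taken from the young arrays, or without the shared probe sets, the difference of Ywhaz was -0.70 instead of 0.24. It was between -0.73 and -0.67 when any 1 old sample was left out, since 1448219_a_at was then the brightest over the remaining arrays. None of these values reached a fold of 2.

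Ywhag, the gamma isoform, held a smaller split of the same kind. Its brightest probe set, 1450012_x_at, was at 10.41, 10.65 and 10.63 in the young and at 10.66, 10.40 and 10.57 in the old samples, with overlap and a difference of -0.02 (95% interval -0.24 to 0.20). The dimmer 1420817_at was at 8.96, 9.12 and 9.13 in the young and at 8.39, 8.26 and 8.26 in the old samples. The ages were apart there by -0.77 (standard error 0.07), short of a fold of 2. Without the shared probe sets, 1420817_at stood for Ywhag. The remaining 2 probe sets were dim, with means of 3.60 and 1.97 in the young and 3.30 and 1.86 in the old samples.

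**Figure D2:**
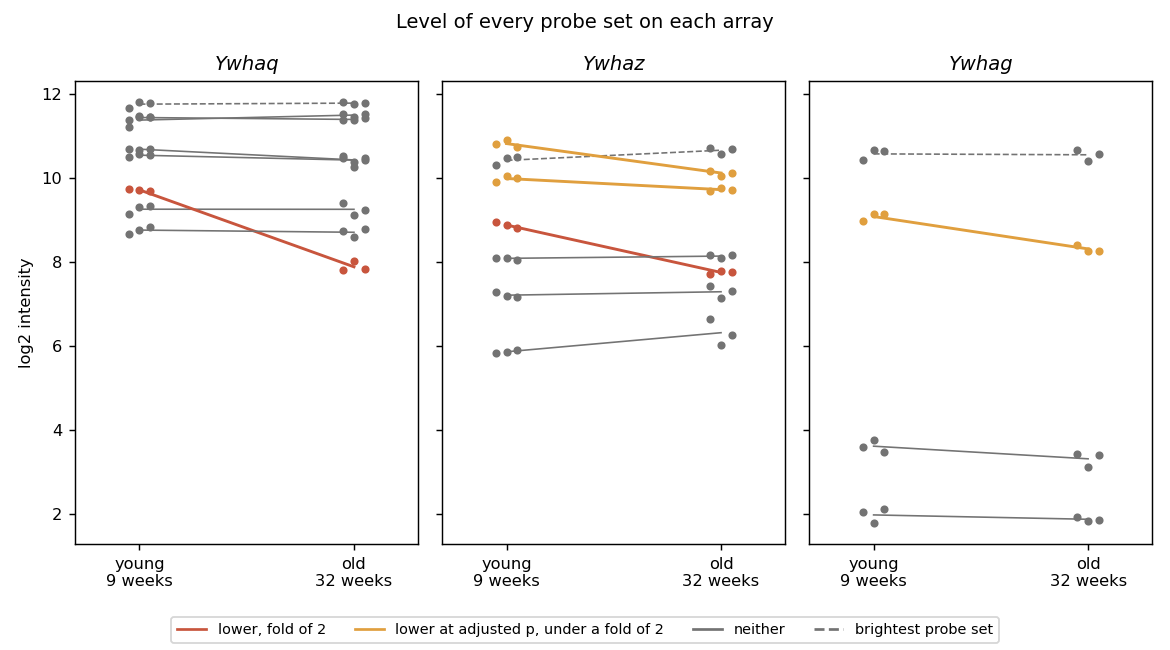
Log2 intensity (vertical axis) of every probe set of Ywhaq, Ywhaz and Ywhag on the 3 young and 3 old arrays, with 1 point per array and a line between the means. The red lines of 1 Ywhaq probe set (9.71 to 7.87) and 1 Ywhaz probe set (8.87 to 7.74) cross dimmer probe sets of the same gene that stay nearly level.

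Counted over the family, 2 of 31 probe sets (6.45%) were called lower by the same rule, and none was called higher. Over all probe sets, 0.552% were lower and 0.466% were higher. Both called probe sets were among the 24 dimmer ones, and of all dimmer probe sets on the array 1.01% were called lower. With no minimum fold, 5 probe sets were lower and none was higher, where 13.8% and 8.95% of all probe sets were. The 5 were 1420828_s_at of Ywhaq, 1420817_at of Ywhag and the 3 lower ones of Ywhaz. Nothing is read from these shares, because the family was chosen from this comparison. In 25 of the 31 probe sets the difference was within 0.3 of 0, and in 15 (48.4%) the groups did not overlap, 12 with the old samples below and 3 above, where the groups of 41.3% of all probe sets did not overlap.

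By the endings of the names, the called probe sets were 1 of 5 ending in _s_at and 1 of 6 ending in _at. None of the 11 probe sets ending in _x_at was called lower, and their differences ran from -0.14 to 0.24. Of the 2038 _x_at probe sets on the array, 0% were called lower as well, while 14 of them were called higher. The called probe set of Ywhaq ended in _s_at, an ending with 1.04% called lower over the array, and that of Ywhaz in _at, with 0.415%. None of the 9 members ending in _a_at was called lower, where 1.52% of all were.

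The dimmer and the brightest probe set of a gene were then set against each other within each array, as the log2 level of the dimmer minus that of the brightest. For 1420828_s_at of Ywhaq this value was -1.93, -2.08 and -2.10 on the young arrays and -4.01, -3.74 and -3.95 on the old arrays, a difference of -1.86 (standard error 0.10). For 1416102_at of Ywhaz it was -1.35, -1.58 and -1.69 on the young and -3.01, -2.79 and -2.93 on the old arrays, a difference of -1.37 (standard error 0.11). These 2 of 24 pairs (8.33%) were called lower, here by 1 or more on the log2 scale at the same adjusted p, and no pair was called higher. Among all 16752 pairs on the array, 1.0% were lower and 0.352% higher. The call of the Ywhaz pair depended on its reference. Set against 1448219_a_at, the brightest probe set on the young arrays and on the arrays left without any 1 old sample, 1416102_at differed by -0.43 (-0.47 to -0.38 without 1 old sample), and 1 pair was then called lower and 1 higher. The pairs of 1448219_a_at and 1448218_s_at of Ywhaz and of 1420817_at of Ywhag had differences of -0.94, -0.51 and -0.75, so that 5 pairs were lower with no minimum fold, where 13.6% of all pairs were lower and 10.6% higher. The remaining 19 pairs lay between -0.28 and 0.24. The median over the 24 pairs was -0.08, against -0.01 over all pairs. The groups did not overlap in 12 of the 24 pairs (50%), as in 42.3% of all pairs. A gene had a dimmer probe set called lower and an uncalled brightest one in 2 of the 5 members with several probe sets and in 1.81% of all such genes. As the family was chosen from this comparison, nothing is read from the shares of its pairs and genes.

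**Figure D3:**
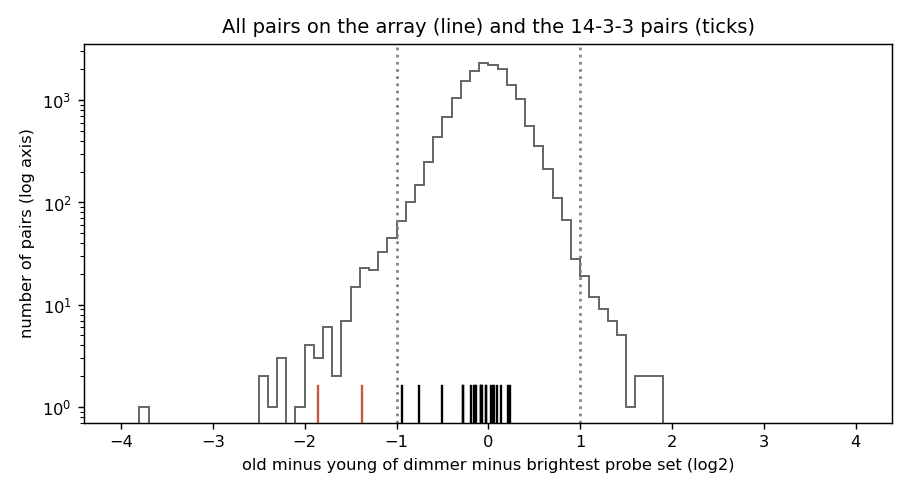
Number of pairs (vertical log axis) by the difference between the ages of dimmer minus brightest probe set (horizontal axis, log2), as a line over all 16752 pairs, with a tick for each of the 24 pairs of the 14-3-3 genes. Most ticks lie between -0.28 and 0.24, and the 2 red ticks at -1.86 and -1.37 lie in the thin left tail.

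The control probe sets of Gapdh, a glycolytic enzyme, and beta-actin read 3 places along 1 transcript. For Gapdh the 3' probe set differed between the ages by 0.05, the middle one by -0.44 and the 5' one by -0.99. For beta-actin the 3 values were -0.15, -0.60 and -1.21. The 5' minus the 3' level of Gapdh was -0.47, -0.46 and -0.48 on the young and -1.512, -1.510 and -1.503 on the old arrays, a difference of -1.04. For beta-actin it was -1.45, -1.46 and -1.51 on the young and -2.57, -2.47 and -2.55 on the old arrays, a difference of -1.05. Young and old arrays did not overlap in any of these, and the exact permutation test, two-sided, returned p = 0.1 for each, its lower limit with 3 samples a group.

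Against these references, the split of Ywhaq was the wider one. Nothing is read from this, since the family was taken up after a lower dimmer probe set of Ywhaq had been seen. The Ywhaq pair of 1420828_s_at less the 5' minus 3' value of Gapdh on the same array was also lower in the old samples, by a difference of -0.82, with values of -1.63 to -1.47 on the young and -2.49 to -2.23 on the old arrays. Against beta-actin the difference was -0.80. The Ywhaz pair of 1416102_at was beyond Gapdh by -0.33, without overlap, when 1436971_x_at was its reference. With 1448219_a_at as the reference the direction turned, to 0.61 against Gapdh and 0.63 against beta-actin, again without overlap. The Ywhaz pair of 1448219_a_at differed from Gapdh by 0.10 with overlapping groups, and from beta-actin by 0.11 with the old samples above the young. The pairs of 1420817_at of Ywhag and 1448218_s_at of Ywhaz shifted less than Gapdh, by 0.29 and 0.53. The part of this 5' to 3' difference in the values of Ywhaq, Ywhaz and Ywhag was not tested, and where their probe sets lie along the transcripts was not analysed here.

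**Figure D4:**
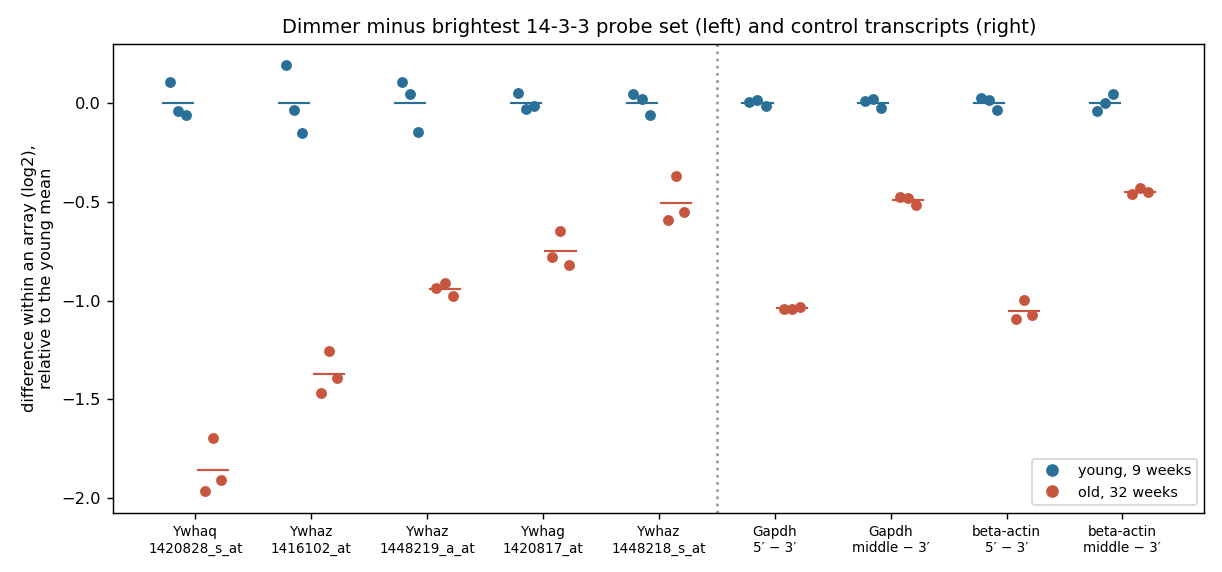
Difference within each array (vertical axis, log2, relative to the young mean) for the 5 pairs of 14-3-3 probe sets that limma called with no minimum fold, each against the brightest probe set of its gene over the 6 arrays, and for the 5' and middle minus 3' values of Gapdh and beta-actin, with a point for each array and a line for the mean of each age. The old arrays lie below the young arrays in the control values and in the 5 pairs, which were picked by their difference between the ages. They lie lower by 1.86 for the Ywhaq pair and by 1.04 for the 5' end of Gapdh.

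Other genes also held probe sets from a single source sequence that differed in their change. Over the array, 2.03% of 3788 groups of probe sets from 1 gene and 1 source sequence had differences that spanned at least 1. In the family 2 of 6 such groups did, with spans of 1.79 in Ywhaq and 1.18 in Ywhaz, followed by 0.75 in Ywhag and 0.05 to 0.27 in Ywhab and Ywhae. Nothing is read from this count, since the family was chosen from the same values. The 5 genes whose pairs were most like that of Ywhaq, by the Euclidean distance over the 6 arrays after centring each pair on its mean, were Hsp90aa1 (distance 0.17), Dcun1d1 (0.18), Selenot (0.23), Acly (0.23) and Pisd-ps3 (0.26). In Hsp90aa1, a stress-inducible HSP90 chaperone, the dimmer probe set differed by -1.84 and the brightest by -0.11. In Dcun1d1, which acts in cullin neddylation, they differed by -1.90 and -0.02, and in Selenot, a selenoprotein of the endoplasmic reticulum, by -1.95 and 0.01. In Acly, which makes cytosolic acetyl-CoA, the 2 values were -1.36 and 0.35. The pseudogene Pisd-ps3 reached its place by a brightest probe set that was higher by 1.67, with the dimmer one at -0.28.

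No gene on a list of 14-3-3 partners, whose proteins are bound by 14-3-3 or act in the same pathways, reached a fold of 2 between the ages by its brightest probe set. The list was drawn up with earlier results of these data known. Of 73 such partner genes 66 were measured, and limma and SAM called 0 at a fold of 2, where limma called 0.638% of all genes higher and 0.126% lower. An unadjusted p under 0.05 was reached by 10 that were higher (15.2%) and 15 that were lower (22.7%), where 16.9% and 20.4% of all genes reached it. With no minimum fold, 5 (7.58%) were higher and 10 (15.2%) lower by limma's adjusted p, where 10.1% and 13.3% of all genes were. The median over the partners was -0.04, against -0.00 over all genes. The 5' minus 3' values of Gapdh and beta-actin were lower on the same old arrays, by -1.04 and -1.05. Their part in the partner values was not tested.

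Of 11 genes of the cell cycle and meiotic arrest, 1 was higher and 2 were lower. Cdk1, the kinase of meiotic and mitotic entry, was at 10.29, 10.18 and 10.09 in the young and at 9.76, 9.87 and 9.80 in the old samples, a difference of -0.38 (standard error 0.07, adjusted p = 0.0077 from limma). Cdc25c, a phosphatase that activates it, differed by 0.41 (standard error 0.09, adjusted p = 0.018 from limma), and Wee2, the inhibitory kinase of the oocyte, by -0.22 (adjusted p = 0.044 from limma). Averaged over its probe sets, Wee2 was at 0.03. The oocyte markers, of which 8 of 10 were lower with no minimum fold, had a median difference of -0.27 in the same samples, and their part in these values was not tested.

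Of 18 PI3K-Akt and mTOR genes, 3 were lower and 1 was higher. Tsc2, which restrains mTOR, and Rictor, a subunit of the second mTOR complex, were at -0.40 and -0.30 (adjusted p = 0.012 and 0.021 from limma), and Akt1s1, an mTOR inhibitor chosen after its value was seen, was at -0.32. Foxo1, a transcription factor that 14-3-3 keeps in the cytoplasm, was at 0.21 (adjusted p = 0.027 from limma), but at -0.15 without the shared probe sets and at -0.05 averaged over its probe sets. Of 7 Hippo pathway genes, the kinase gene Lats1 was lower (-0.35, standard error 0.06, adjusted p = 0.0070 from limma), and Sav1 (-0.11) and Wwtr1 (-0.12) did not pass. Of 7 RAF and MARK kinases, Mark3 was lower (-0.19, adjusted p = 0.048 from limma), and Mark2 (-0.22) and Araf (-0.14) did not pass. Of 7 class II deacetylases and their like, Hdac4 was lower (-0.36, adjusted p = 0.0087 from limma), and Hdac5 (0.18) and Crtc2 (-0.20) did not pass. Of 6 stress and cell death genes, the kinase gene Map3k5 was higher (0.26, adjusted p = 0.014 from limma) but stood at -0.03 averaged over its probe sets, and Cbl and Bcr were at -0.19 each without passing.

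Of 10 cytoskeleton and polarity genes, 2 were higher and 2 were lower. The keratin gene Krt18 was at 6.37, 6.41 and 6.43 in the young and at 6.71, 6.81 and 6.78 in the old samples, so that it was higher by 0.36 (standard error 0.05) with an adjusted p = 0.0038 from limma. Its partner keratin Krt8, named after its value was seen, was at 0.25 (adjusted p = 0.016 from limma). Both are keratins of simple epithelia, and the surface epithelium markers were higher in the same samples in 5 of 7 genes; the part of these markers in the keratin values was not tested. Vim, the gene of the intermediate filament vimentin, was at -0.38 (adjusted p = 0.0046 from limma) by its brightest probe set but at 0.14 averaged over its probe sets. Pard3, a polarity protein that 14-3-3 binds, was at -0.36 (standard error 0.08, adjusted p = 0.014 from limma).

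Several of these partner calls were lost when 1 sample was left out. With any 1 sample left out, limma's adjusted p was 0.061 to 0.11 for Wee2 and 0.060 to 0.13 for Mark3. For Foxo1 it was 0.080 to 0.089 without young replicate 2, young replicate 3, old replicate 1 or old replicate 3, and for Rictor 0.051 to 0.074 without young replicate 2, young replicate 3 or old replicate 2. It was 0.057 for Cdc25c without young replicate 3 and 0.052 for Pard3 without old replicate 3. With probe sets averaged, Cdc25c (0.26), Rictor (-0.11) and Lats1 (-0.12) also missed the threshold, as did Cdc25c (0.10) without the shared probe sets. After quantile normalization was repeated, Wee2, Mark3 and Rictor missed it (adjusted p = 0.058, 0.11 and 0.072 from limma), and Hdac5 passed it (0.25, adjusted p = 0.036 from limma).

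Dimmer probe sets were called in 4 partner genes. Of the 55 partners with several probe sets, 3 (5.45%) had a dimmer one called lower and 1 (1.82%) a dimmer one called higher beside an uncalled brightest one, where 1.81% and 0.211% of all such genes did. These were Ctnnb1 (-1.71 at 1450008_a_at against -0.12 at its brightest), Akt1 (-1.28 against -0.07), Pard3 (-1.19 and -1.04 against -0.36) and Tbc1d1 (1.14 against -0.07). They were named after their values were seen. Nothing is read from the shares, since the partner list was drawn up with earlier results of these data known. Akt1, the kinase that phosphorylates many 14-3-3 partners, went at 1425711_a_at from 6.04 ± 0.15 to 4.76 ± 0.18 (SD, n = 3 each) without overlap. Whether the 5' to 3' difference of the control transcripts had a part in these dimmer probe sets was not tested.

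**Figure D5:**
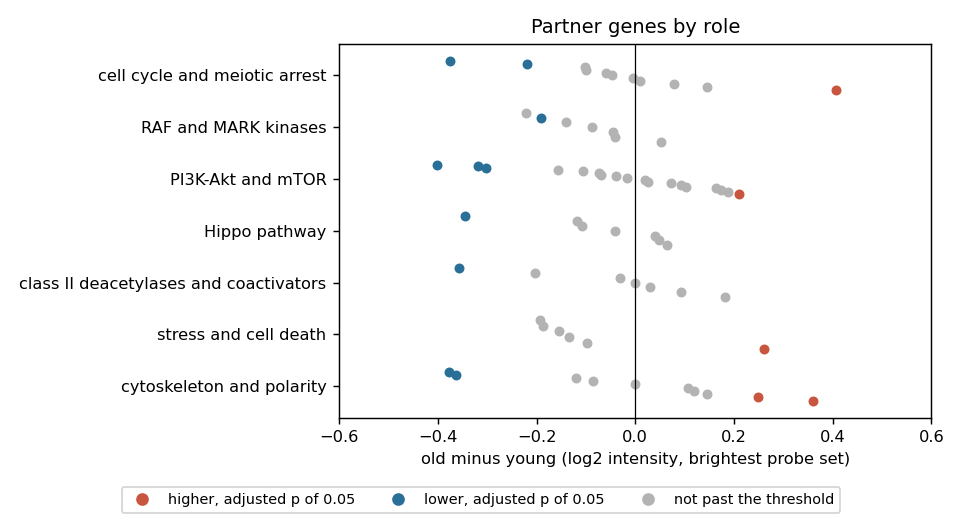
Difference of each of the 66 measured partner genes (horizontal axis, old minus young, log2 intensity, brightest probe set) by role, coloured where limma's adjusted p passed 0.05. All points lie between -0.40 and 0.41, with 10 lower and 5 higher past the threshold.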

How the data were processed

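The authors processed the arrays with RMA, whose version the sources used here do not give, and deposited intensity values on a linear scale, from 2.62 to 13880. The design had foreseen log2 values, so log2 of each intensity was taken, with no pseudocount and no filter on dim probe sets. Probe sets were named from the platform annotation, with symbols updated by gene ID to RefSeq names (18032 of 18194 IDs held). Of 45101 probe sets, 34945 with 1 symbol were tested, without 932 that had several, 9211 that were not listed and 64 controls. The ages were compared with limma 3.58.1 in R 4.3.3 over 34945 probe sets, over 18193 genes by the brightest probe set and over 16752 pairs, each with Benjamini-Hochberg adjustment, two-sided. The paper's thresholds were used. SAM was rewritten from its description with all 20 label assignments as an alternative. Steps were checked on simulated data.

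The members and lists were chosen with earlier results of these data known. Named genes were all members, the Gapdh and beta-actin controls, partner genes called or among the 3 with the smallest p in their group, and the 5 nearest patterns. At most 359 probe sets held the same value on a pair of arrays. The median SD within groups was 0.09, and 3 arrays per group limit the precision. Other normalization, thresholds, probe set rules, a replicate block and leaving out each sample were tried. Probe sequences and coordinates were not used here.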

Additional observations from a re-analysis of the deposited data

How the results depend on the processing

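The count of 0 members called by the brightest probe set held under every alternative run. The 2 member probe sets called lower remained 2 with quantile normalization repeated, the filter on dim probe sets, SAM, the replicate block and each sample left out, and became 4 at a fold of at least 1.5, 5 with no minimum fold and 1 without the shared probe sets. The 2 pairs called lower became 4 and 5 at those lower thresholds. They became 1, with 1 called higher, when the brightest probe set was taken from the young arrays, and 0, with 1 higher, without the shared probe sets, since the reference of Ywhaz was then 1448219_a_at and, without the shared probe sets, 1420828_s_at of Ywhaq was itself left out. Leaving out 1 sample gave 1 to 3 pairs lower and 0 to 1 higher, with 1 of each without any 1 old sample, for the same reason, and 3 lower without young replicate 3.

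Of the partners, 5 were called higher and 10 lower with no minimum fold. This split was 9 higher and 6 lower after quantile normalization, 9 higher and 15 lower with the filter on dim probe sets, 3 higher and 11 lower with the probe sets of a gene averaged, and 4 higher and 14 lower without the shared probe sets. With that filter Mark2, Hdac5, Cbl and Bcr passed the threshold (adjusted p = 0.018, 0.041, 0.027 and 0.038 from limma). Without 1 sample it ran from 2 to 5 higher and from 6 to 8 lower, with 3 and 6 without young replicate 2, 2 higher without young replicate 3 and 6 lower without old replicate 2. At a fold of 2, 1 partner was lower with the brightest on the young arrays (Pard3, -1.19) and 1 higher without the shared probe sets (Tbc1d1, 1.14). The value of Tbc1d1 was that of its dim probe set 1447016_at. Direction turned with averaged probe sets for Wee2 (0.030), Foxo1 (-0.054), Wwtr1 (0.057), Map3k5 (-0.029), Bcr (0.016) and Vim (0.14), and without the shared probe sets for Foxo1 (-0.15). The cause was not tested.

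No sign of pairing by replicate number was seen, though 3 arrays per group cannot settle it. Deviations of same-numbered samples correlated at 0.05, -0.00 and 0.04 across genes, and those of unlike numbers at -0.09 to 0.06. With the number as a block, 2 member probe sets and 2 pairs were lower, and 4 partners were higher and 8 lower. Wee2, Mark3 and Foxo1 were then no longer past the threshold (adjusted p = 0.058, 0.10 and 0.061 from limma), and neither were they in SAM. The 3' minus 5' differences kept their direction, also with the middle probe set in place of the 5' one (0.49 for Gapdh and 0.45 for beta-actin).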
